A study of Homo sapiens with 6 samples.

Results

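HCCLM3 is a human hepatocellular carcinoma cell line with high metastatic potential. The baseline state of these cells is described here from the libraries that received a lentivirus with a control short hairpin RNA (shcontrol), which are 3 of the 6 libraries of the series and were chosen by their treatment label. The other 3 libraries carried a hairpin against ATXN7L3 and are not used here. All cells grew at 37 °C and 5% CO2 in DMEM with 10% FBS, and the virus-containing medium was replaced after 16 hours. The labels call the source hepatoma, give no untransduced cells and do not state the time of harvest. They also leave unsaid whether each replicate came from its own culture, and the differences among replicates may then be technical.

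Hepatocytes make most plasma proteins and carry out the urea cycle, drug oxidation and bile transport, under the control of transcription factors such as HNF4A, CEBPA and the FOXA proteins. Liver cancer lines keep these programmes to different degrees and can also express genes of fetal liver, bile duct or gut epithelium. Poly-A RNA sequencing measures the mRNA of such programmes together. In a bulk sample, fewer cells of a type and less RNA per cell cannot be told apart.

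The shcontrol libraries held 23033763, 22376867 and 22671480 counts over 34234 genes. Levels are given as TPM, the count per kilobase of exonic length scaled to the same total over all genes of a library, so that genes of different length can be set side by side. A gene is called expressed where it reached 1 TPM in all 3 libraries. This held for 14670 genes (42.9%) and for 10780 of 16532 protein-coding genes (65.2%). The median over all 16532 was 3.37 TPM. Mitochondrially encoded genes took 22.5% ± 0.678 (SD, n = 3) of the counts and 67.4% ± 0.728 of the TPM, which lowers the TPM of all nuclear genes. Leaving them out of the total multiplied nuclear TPM by 3.07 ± 0.0694 and brought the expressed protein-coding genes to 12101 (73.2%). The mitochondrial genes are short and some overlap, and reads on bases that genes share may have been counted for each of them. ATXN7L3, the gene targeted elsewhere in the series, stood at 10.2, 10.2 and 10.9 TPM in shcontrol replicates 1, 2 and 3.

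The promoters of 4 genes that recur below are shown because they stand for opposite sequence classes and levels. They are MET (a receptor tyrosine kinase, high), KRT20 (an intestinal keratin, high), ALB (serum albumin, moderate) and AFP (the fetal counterpart of albumin, near the threshold). Each line gives the 250 bases before the RefSeq transcript start on the gene's strand, 5′ to 3′ (build GRCh38.p14), with CG dinucleotides in capitals. MET is at chr7:116671946-116672195 (plus strand), KRT20 at chr17:40885243-40885492 (minus strand), ALB at chr4:73404037-73404286 (plus strand) and AFP at chr4:73435971-73436220 (plus strand).
MET: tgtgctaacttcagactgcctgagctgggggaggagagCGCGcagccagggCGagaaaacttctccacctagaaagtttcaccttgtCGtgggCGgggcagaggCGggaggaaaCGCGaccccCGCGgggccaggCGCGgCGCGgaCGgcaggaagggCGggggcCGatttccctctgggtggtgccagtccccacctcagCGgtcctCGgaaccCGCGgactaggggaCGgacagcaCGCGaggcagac
KRT20: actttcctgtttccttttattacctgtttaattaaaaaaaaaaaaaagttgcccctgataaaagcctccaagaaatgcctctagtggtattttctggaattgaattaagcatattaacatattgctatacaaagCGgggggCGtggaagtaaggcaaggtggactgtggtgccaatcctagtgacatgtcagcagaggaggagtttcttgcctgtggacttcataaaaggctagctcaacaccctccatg
ALB: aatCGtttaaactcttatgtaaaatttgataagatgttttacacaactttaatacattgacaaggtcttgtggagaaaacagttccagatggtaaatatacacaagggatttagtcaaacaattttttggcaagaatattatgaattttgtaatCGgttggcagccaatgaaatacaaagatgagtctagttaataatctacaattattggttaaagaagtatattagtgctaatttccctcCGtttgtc
AFP: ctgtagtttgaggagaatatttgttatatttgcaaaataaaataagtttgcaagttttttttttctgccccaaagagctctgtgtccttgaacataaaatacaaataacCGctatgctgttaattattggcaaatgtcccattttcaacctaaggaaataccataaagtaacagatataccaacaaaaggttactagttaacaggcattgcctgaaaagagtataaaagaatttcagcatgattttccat
The MET stretch holds 24 CG dinucleotides, that of ALB 3, that of KRT20 2 and that of AFP 1. The letters TATAAA begin at position -29 from the start in AFP and occur in none of the other 3 stretches.

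The 20 most abundant nuclear protein-coding genes mixed detoxification and iron storage (AKR1B10, ALDH1A1, FTL), a growth factor receptor (MET), secretory pathway chaperones (HSP90B1, CALR, HSPA5) and genes linked to motile or matrix-producing cells (S100A4, CAV1, FN1). AKR1B10 led them. It encodes an aldo-keto reductase that is raised in many liver cancers, and lies on chromosome 7 from 134527592 to 134541408 (GRCh38, as are all deposited coordinates). Its level was 2480.2, 2324 and 2563 TPM in replicates 1, 2 and 3 (2456 ± 121, mean ± SD, n = 3). CTSL, a lysosomal cysteine protease, followed with 1769, 1608 and 1525 TPM. FTL, the ferritin light chain, had 1494, 1422 and 1403 TPM. These first 3 genes kept the same order in every library, and the ranges of AKR1B10, CTSL and FTL did not overlap.

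MET, the receptor of hepatocyte growth factor, came next with 1358, 1305 and 1420.2 TPM. ALDH1A1, a retinaldehyde dehydrogenase used as a stem cell marker, had 1252, 1216 and 1347 TPM. The range of MET overlapped those of FTL and ALDH1A1. FTL lay above MET in replicates 1 and 2 but below it in replicate 3, so the order of FTL and MET is not resolved. Both lay above ALDH1A1 within every library. CEACAM6, a cell adhesion glycoprotein of gut and myeloid cells, had 1132, 1083 and 1113 TPM, below ALDH1A1 in all libraries. Its exons overlap those of AC011513.3 on the same strand, so part of its count may belong there. Among the 19 neighbouring pairs of the 20 genes, the ranges of 13 overlapped and those of 6 did not. RPL36A-HNRNPH2 and HSPE1-MOB4 also stand among the 20, but both are readthrough genes that contain the exons of abundant single genes. The 20 genes were the same without any single library, 17 of them remained when genes with same-strand overlaps were left out, and 14 when CPM without length scaling ranked the genes.

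**Figure D1:**
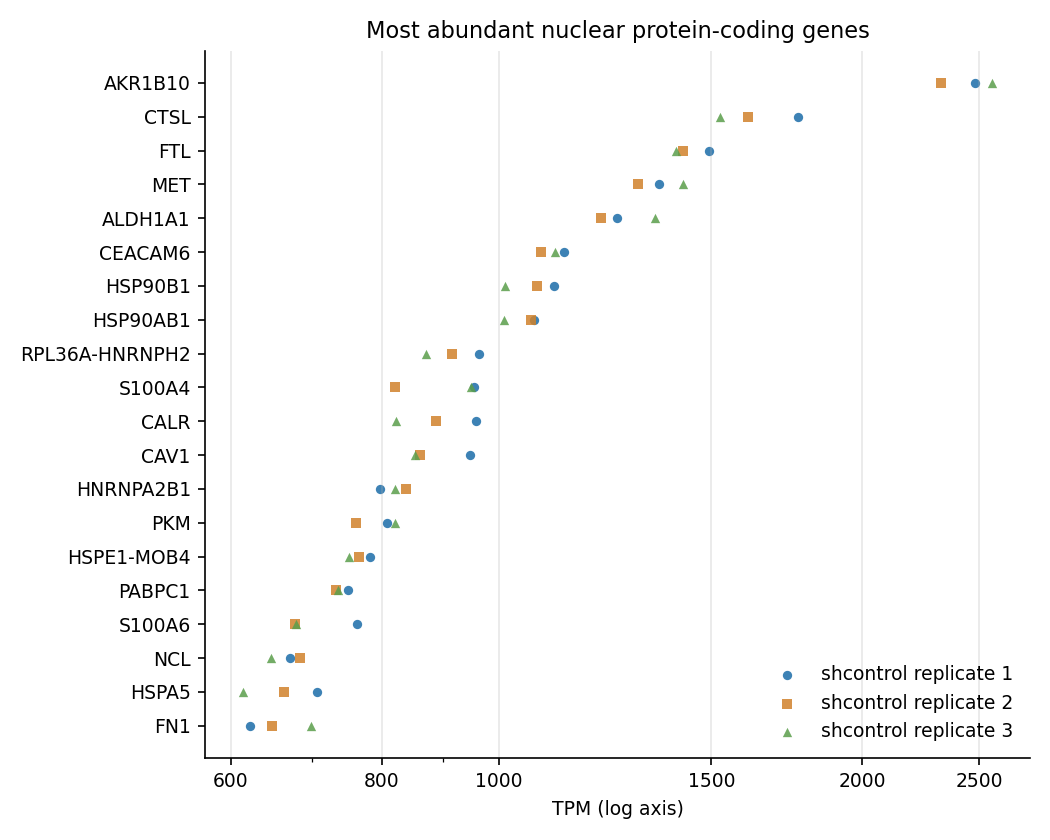
TPM (log axis) of the 20 most abundant nuclear protein-coding genes, one row per gene, with 1 symbol per shcontrol library. AKR1B10 lies between 2324 and 2563 TPM, apart from CTSL, while the symbols of most lower neighbours overlap.

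The label hepatoma was checked against marker lists for 17 tissues and cell classes, of which the figure of identity lists shows every measured member. Of the liver transcription factors, 20 of 24 were expressed (83.3%), beside 65.2% of all protein-coding genes, with a median of 4.68 TPM. Several lay close to the threshold. At 2 TPM in every library, 15 of the 24 remained, beside 9441 of all 16532 protein-coding genes. Hepatocyte plasma proteins were split, with 19 of 38 measured members expressed (50%), and hepatocyte enzymes and transporters were mostly low, with 11 of 33 (33.3%). Markers of stomach and intestine were expressed in 15 of 24 cases (62.5%), close to the 65.2% of all protein-coding genes. Their median was 7.18 TPM, beside 1.23 TPM for the plasma proteins and 3.37 TPM for all protein-coding genes. In every library, 11 gut markers and 8 plasma proteins reached 10 TPM. The libraries therefore carried hepatocyte regulators and a part of the hepatocyte products together with some gut epithelial mRNAs. The expressed share of the gut list did not stand out, and 3 of its members reached 100 TPM in every library. List members without a row in the deposited counts, such as GPC3, ARG1 and OTC, were not analysed here. The shares are over measured members, which were 24 of 29 listed gut markers, 33 of 39 enzymes and transporters and 38 of 41 plasma proteins. Each row of the deposited counts has at least 1 count in the 6 libraries, so these shares may lie above those over all listed genes.

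**Figure D2:**
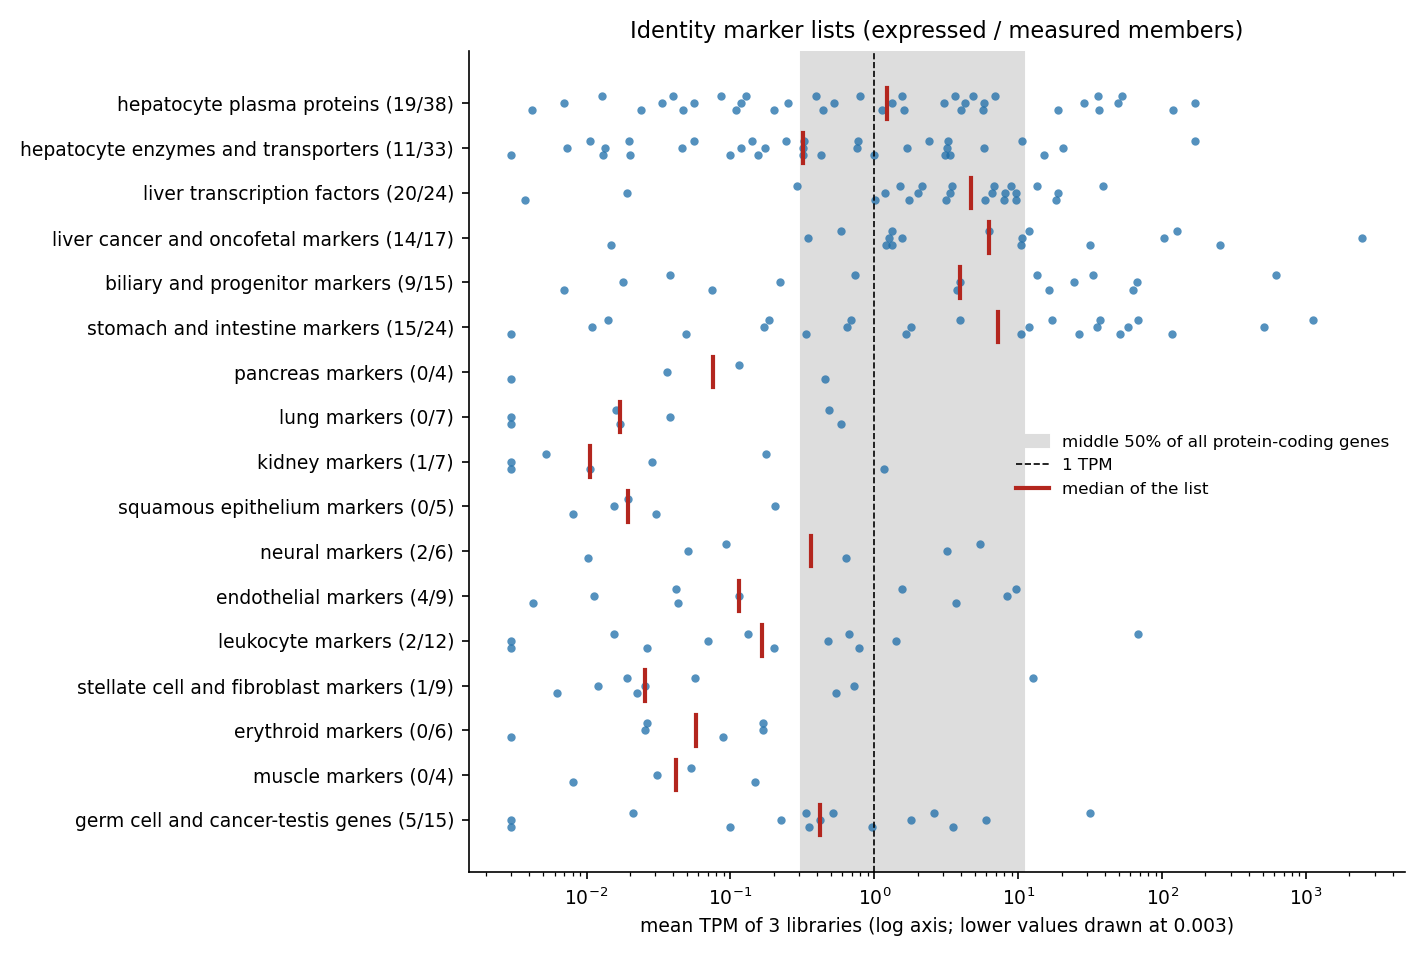
Mean TPM over the 3 shcontrol libraries (log axis) of each measured member of the 17 identity lists, with the list's median as a red bar, 1 TPM as a dashed line and the middle 50% of all protein-coding genes in grey. Lists of pancreas, lung, squamous, erythroid and muscle markers have no member past 1 TPM, whereas stomach and intestine markers reach 1109 TPM.

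Among transcription factors of the liver, ATF5, a leucine zipper factor abundant in liver, was the highest with 39.8, 38.8 and 37.8 TPM. CEBPA, which drives hepatocyte differentiation and restrains growth, had 20.9, 17.0 and 19.1 TPM. HNF4A, the nuclear receptor at the centre of the hepatocyte network, had 9.07, 8.07 and 9.51 TPM. All lay above the protein-coding median in each library. FOXA1 stood at 13.5 ± 0.490 TPM, FOXA2 at 9.71 ± 1.01 TPM and FOXA3 at 1.5 ± 0.147 TPM. The bile acid receptor NR1H4 reached 6.83 ± 1.68 TPM, while its target NR0B2, a corepressor of bile acid synthesis, gave 1, 0 and 0 counts. GATA6 (7.92 ± 0.613 TPM) and HNF4G (5.88 ± 0.744 TPM), which also serve gut epithelium, were expressed as well.

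Plasma protein genes ran from more than 100 TPM down to single counts. ITIH2, a heavy chain that stabilises hyaluronan matrix, was the highest with 174, 164 and 170.3 TPM. The copper-carrying ferroxidase CP followed with 111, 113 and 134 TPM. ALB, the main product of adult hepatocytes (chromosome 4, 73397114 to 73421412), had 27.8, 28.3 and 30.2 TPM. ITIH2 thus exceeded ALB by 5.90 ± 0.324 times within a library. APOH and TF (transferrin) stood between them at 36.5 ± 3.73 and 35.9 ± 4.73 TPM. AFP, the classical serum marker of liver cancer, was just past the threshold with 1.28, 1.22 and 1.5 TPM, so ALB exceeded it by 21.7 ± 1.48 times. The TPM values rest on 63, 60 and 72 counts for AFP and 1423, 1438 and 1505 counts for ALB.

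The fibrinogen chains, which hepatocytes secrete as a hexamer of 3 chain types, were unequal. FGB had 53.2, 46.7 and 47.0 TPM, FGA 6.92 ± 0.196 TPM and FGG 1.12 ± 0.238 TPM. FGB exceeded FGG by 38.2 to 49.6 times in the 3 libraries. FGG lay on either side of 1 TPM (0.941 in replicate 2) and did not count as expressed. At the bottom of the list, haptoglobin (HP), plasminogen (PLG), antithrombin (SERPINC1) and APOA2 gave at most 2 counts in any library. APOA1, the main protein of high density lipoprotein, was at 0.439 ± 0.125 TPM and transthyretin (TTR) at 0.523 ± 0.162 TPM. APOB, the core protein of very low density lipoprotein, was expressed at 4.24 ± 0.896 TPM.

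**Figure D3:**
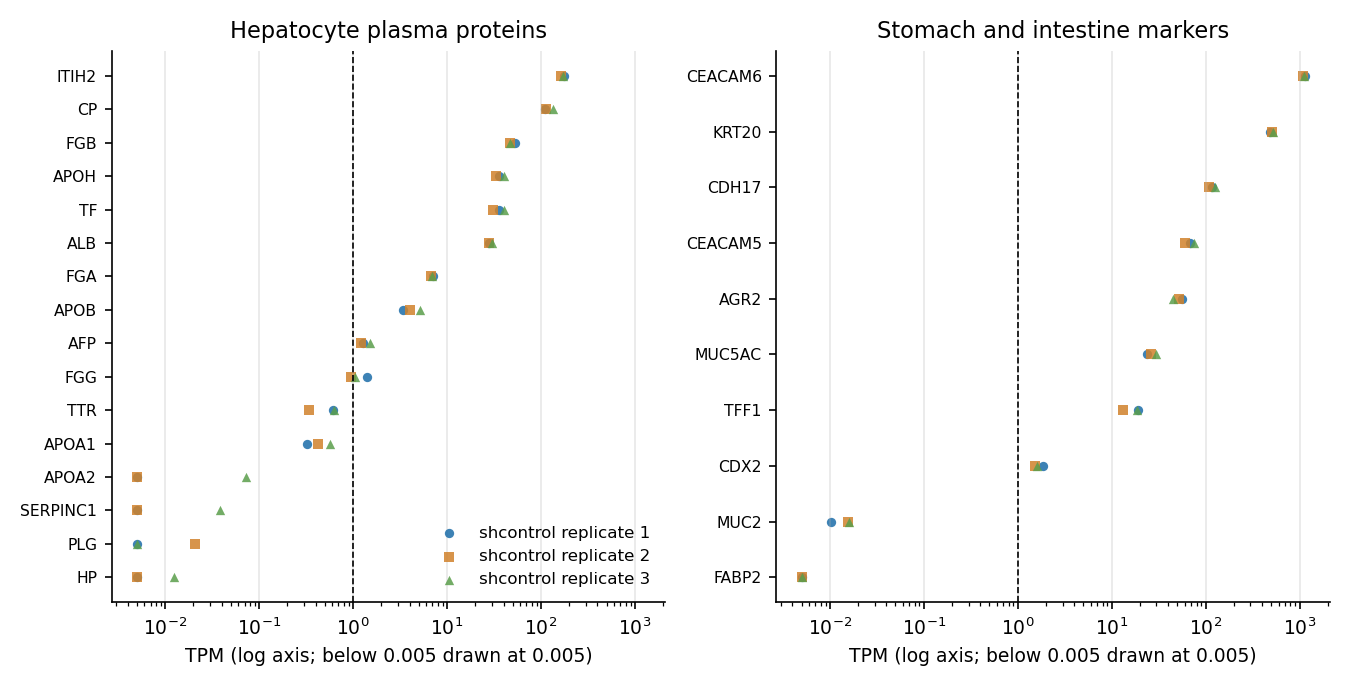
TPM per shcontrol library (log axis, 1 symbol per library) of the hepatocyte plasma proteins and the stomach and intestine markers named in the text, ordered by mean, with 1 TPM dashed. Plasma proteins run from ITIH2 near 169.6 TPM down to single counts, and gut markers from CEACAM6 near 1109 TPM down to FABP2 at 0.

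Of the enzymes and transporters, ABCC2, the canalicular pump for conjugated bilirubin, was the exception with 164, 160.2 and 185 TPM. Glutamine synthetase (GLUL), which hepatocytes around the central vein use to clear ammonia, had 19.9, 19.7 and 21.5 TPM. The next were CYP27A1 of bile acid synthesis (15.2 ± 0.369 TPM), the urea cycle lyase ASL (10.6 ± 0.459 TPM) and UGT2B7 (5.80 ± 0.835 TPM). CPS1, which feeds ammonia into the urea cycle and is among the most abundant proteins of normal liver, gave 0, 0 and 1 counts. G6PC, the last step of glucose release, gave 0, 2 and 0 counts, and the alcohol dehydrogenases ADH1A, ADH1B and ADH4 at most 4 counts. CYP3A4 stood at 0.155 ± 0.0635 TPM and the bile acid importer SLC10A1 at 0.141 ± 0.0817 TPM.

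Gut epithelial genes were led by CEACAM6, described above, and KRT20, the keratin of differentiated intestinal epithelium. KRT20 (chromosome 17, 40875941 to 40885227) had 490.2, 505 and 524 TPM. It exceeded KRT19, a keratin of bile ducts, by 15.5 ± 2.01 times within a library. CDH17, the liver-intestine cadherin, had 117, 109 and 125 TPM. CEACAM5, the carcinoembryonic antigen, had 67.6, 59.7 and 75.5 TPM but also overlaps another gene on its strand. Among secreted mucins, MUC5AC of the gastric surface had 23.6, 26.0 and 29.9 TPM, while MUC2 of intestinal goblet cells gave 2, 3 and 3 counts. TFF1, the trefoil peptide secreted with MUC5AC, had 17.0 ± 3.29 TPM. The intestinal master regulator CDX2 was low but expressed at 1.66 ± 0.176 TPM. FABP2, the fatty acid carrier of enterocytes, was at 0 in all libraries, where 3 counts would have given up to 0.0822 TPM.

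Bile duct and progenitor markers were led by SPP1, the secreted phosphoprotein osteopontin, with 646, 596 and 618 TPM. It exceeded ALB by 21.6 ± 1.46 times within a library. CD44, the hyaluronan receptor, followed with 66.9 ± 4.14 TPM, CD24 with 62.5 ± 2.51 TPM and KRT19 with 32.8 ± 2.99 TPM. SOX9, the duct transcription factor, had 13.5 ± 0.620 TPM. In contrast, EPCAM gave 2, 11 and 12 counts and PROM1, which encodes CD133, 3, 1 and 2 counts. Of 15 measured members, 9 were expressed (60%), beside 65.2% of all protein-coding genes.

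Liver cancer and oncofetal markers were expressed in 14 of 17 measured cases (82.4%), of 19 listed, beside 65.2% of all protein-coding genes. After AKR1B10 came the growth factor midkine (MDK) with 281, 241 and 239 TPM, the Golgi protein GOLM1 with 127 ± 8.06 TPM and the imprinted noncoding RNA H19 with 104 ± 6.10 TPM. IGF2, its imprinted neighbour, had 1.56 ± 0.0579 TPM. The telomerase gene TERT was expressed at 1.2 ± 0.146 TPM. Among cancer-testis genes, 5 of 15 were expressed (33.3%), led by MAGEA3 with 31.6 ± 1.21 TPM and MAGEC2 with 6.01 ± 0.412 TPM. MAGEA3 and MAGEA6 are near-identical copies, so their counts are uncertain.

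Markers of other cell types were expressed in part, beside 65.2% of all protein-coding genes. CD68, LUM, TUBB3 and 3 endothelial markers lay above the protein-coding median of 3.37 TPM, while defining markers of the same lists were near 0. Of the leukocyte list, 2 of 12 were expressed, namely CD68, a lysosomal protein, with 70.9, 71.5 and 62.4 TPM and CD79A with 1.41 ± 0.0818 TPM. The pan-leukocyte phosphatase PTPRC gave 5, 2 and 3 counts, and MS4A1 and AIF1 were at 0. Of the endothelial list, 4 of 9 were expressed (ESAM, PECAM1, KDR and LYVE1, the highest being ESAM at 9.65 ± 0.910 TPM), while VWF gave 7, 4 and 9 counts, TEK at most 4 and CDH5 at most 2. LUM, a matrix proteoglycan, was the only expressed fibroblast marker of 9, with 12.7 ± 1.52 TPM, and COL1A1 had 9, 9 and 7 counts. PAX8 was the only expressed kidney marker of 7 (1.17 ± 0.114 TPM), and TUBB3 and MAP2 were the expressed neural markers, 2 of 6. The summed level was 66.8 to 74.9 TPM for the leukocyte list, of which CD68 made up most, and 22.9 to 24.4 TPM for the endothelial list. No measured marker of pancreas, lung, squamous epithelium, erythroid cells or muscle was expressed by this threshold. With the mitochondrial genes left out of the total, the lung markers AGER and NAPSA passed it (means of 1.80 and 1.49 TPM), and none of the other 4 lists gained a member. Over all identity lists, 10 measured members were at 0 in every library, where 3 counts would have given 0.0406 to 0.308 TPM. Listed members without a row in the deposited counts are not among these 10.

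Of 20 epithelial genes, of junctions or of regulators such as ESRP1 and GRHL2, 14 were expressed (70%), and of 14 measured mesenchymal genes 8 (57.1%). These shares lie either side of the 65.2% over all protein-coding genes. The list medians were 3.82 and 1.53 TPM, beside 3.37 TPM over all protein-coding genes. Desmoplakin (DSP), the anchor of keratin at desmosomes, led the junction genes with 58.9, 60.2 and 63.4 TPM. E-cadherin (CDH1) had 5.55, 5.58 and 5.56 TPM and N-cadherin (CDH2) 61.9, 57.4 and 56.4 TPM. CDH2 exceeded CDH1 by 10.1 to 11.1 times in the 3 libraries. What these levels say of a mesenchymal state was not tested. The calcium-binding protein S100A4 had 954, 821 and 948 TPM and fibronectin (FN1) 622, 649 and 699 TPM, but vimentin (VIM), the usual intermediate filament of mesenchymal cells, only 0.959, 0.734 and 0.881 TPM. The keratin pair KRT8 (358 ± 11 TPM) and KRT18 (81.3 ± 3.97 TPM) was high instead. The transcription factor ZEB1, a repressor of CDH1, had 10.0 ± 1.35 TPM, while the epithelial factor GRHL2 gave at most 6 counts. Of the paired epithelial splicing factors, ESRP1 gave at most 1 count and ESRP2 had 3.95, 3.56 and 4.32 TPM.

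MET stood apart among the 22 measured receptor tyrosine kinases, of which 13 were expressed (59.1%), beside 65.2% of all protein-coding genes. The next were ERBB3 with 30.2, 28.3 and 33.8 TPM and EPHA2 with 30.4, 27.2 and 28.6 TPM, whose ranges overlapped. EGFR had 12.5, 13.2 and 15.7 TPM, so that MET exceeded it by 99.4 ± 9.40 times within a library, and FGFR4, the receptor of the gut hormone FGF19, by 89.2 ± 5.57 times. MET lies on chromosome 7 from 116672390 to 116798386. The genes around it were listed after values were seen. Of those before its start, CAV1, the scaffold protein of caveolae, had 947, 861 and 853 TPM, CAV2 215 ± 10.8 TPM, TES 295 ± 14.5 TPM and MDFIC 209.8 ± 16.7 TPM. After its end, CAPZA2, an actin capping subunit that begins at 116811070, had 20.2, 21.1 and 22.4 TPM. The next gene, ST7, had 5.18 ± 0.200 TPM. CAV1 exceeded CAPZA2 by 41.9 ± 4.45 times within a library. Of the 10 genes of this stretch, MET included, 5 passed 100 TPM in every library, beside 2.09% of all protein-coding genes; as the list was chosen after values were seen, nothing is read from that share.

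Proliferation and metabolism genes were expressed almost without exception, beside 65.2% of all protein-coding genes. All 20 DNA replication and mitosis genes were expressed, with a median of 44.9 TPM. MCM7, a subunit of the replicative helicase, had 129.7, 127 and 131 TPM and MKI67, the proliferation antigen, 60.6, 68.2 and 72.3 TPM. All 26 measured liver cancer driver genes were expressed, from MYC at 46.8 ± 0.231 TPM and CTNNB1 at 42.1 ± 0.771 TPM downward. Expression of a driver says nothing of its mutations. In glycolysis, 18 of 19 genes were expressed, with PKM at 808, 762 and 821 TPM. The lactate dehydrogenase gene LDHB exceeded LDHA by 3.77 ± 0.272 times, and HK2, the hexokinase of many tumours, gave 14, 7 and 7 counts. All 22 cholesterol synthesis genes were expressed, with a median of 23.3 TPM, led by FDPS (149 ± 6.32 TPM).

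Genes that the factor NRF2 induces against oxidants and electrophiles were listed after values were seen, among them AKR1B10 and FTL from the top of the ranking. The counts that follow describe that choice and support nothing about NRF2 targets at large. All 30 were expressed, 18 of them at 100 TPM or more in every library, where 2.09% of all protein-coding genes stand, and together they took 2.86% ± 0.0402 of the nuclear TPM. Besides AKR1B10 and FTL, they included PTGR1 with 642, 605 and 662 TPM, thioredoxin reductase TXNRD1 with 585, 577 and 638 TPM and NQO1 with 218, 202 and 227 TPM. Of 15 endoplasmic reticulum chaperone genes, likewise chosen after values were seen, all were expressed and 8 passed 100 TPM in every library.

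Interferon response genes were uneven, with 10 of 23 expressed (43.5%), beside 65.2% of all protein-coding genes. OAS1, an activator of antiviral RNase L, had 41.6, 39.4 and 46.2 TPM and OAS3 21.5 ± 1.14 TPM. BST2, a tether of budding virus, was at 0 in all libraries (3 counts would have given up to 0.182 TPM), and MX1 gave 8, 12 and 12 counts. Metallothioneins, small zinc-binding proteins, were below the threshold in 5 of 5 measured cases, with MT2A the highest at 0.959 ± 0.150 TPM. In the SAGA deubiquitinase module, which holds the gene targeted elsewhere in the series, 7 of 9 were expressed, led by its protease USP22 with 47.7 ± 1.82 TPM and ENY2 with 25.7 ± 0.643 TPM. Of the other lists, 16 of 20 hypoxia response genes, 13 of 14 integrated stress response targets, 13 of 16 immediate early genes and 12 of 12 translation elongation factors were expressed. Each count in this paragraph stands beside the same 65.2%, and none was tested. The single genes IGF2, TERT, CDH1, EGFR, LDHA, MT2A, VIM, ESRP1, ESRP2, GRHL2, EPHA2, AGER, NAPSA, PTPRC, VWF, TEK, CDH5, COL1A1, HK2, BST2, MX1, TIPARP and AHRR were named after their values were seen.

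The 5 noncoding genes with the highest level were AL135787.1, NUCB1-AS1, AC079466.1, DYX1C1-CCPG1 and NORAD. AL135787.1 had 2212 ± 95.4 TPM, but its exons overlap PTGR1 on the same strand, and NUCB1-AS1 (347 ± 11.9 TPM) and DYX1C1-CCPG1 (137 ± 11.5 TPM) overlap other genes too. Only AC079466.1 (235 ± 38.2 TPM) and NORAD (136 ± 3.77 TPM), a binder of PUMILIO proteins that guards chromosome stability, overlapped no other gene. The strand setting of the counting is not given in the sources used here, so reads of antisense partners cannot be told apart. Some of the other genes named also overlap a gene on their own strand. These are TF, ASL, CD68, ERBB3, IGF2, ST7, AHR, AHRR, MUC1, PROM1, TUBB3, ESRP2, CYP1B1-AS1 and ANKRD12.

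Across the genome, level went with the class of promoter shown at the outset. RefSeq windows (250 bases before to 50 after the start) were matched for 13235 nuclear protein-coding genes, of which 67.2% were expressed. Windows were called CpG-rich where the CG dinucleotide count was at least 0.6 of that predicted from the C and G content. Of 9630 CpG-rich windows, 78.2% belonged to expressed genes, with a median of 5.46 TPM, against 37.6% of 3605 CpG-poor windows, with a median of 0.342 TPM. The letters TATAAA, searched on the sense strand alone, were in 5.26% of windows. Of genes with them 46.0% were expressed, and of genes without them 68.3%, although 3.16% of the former and 2.13% of the latter reached a mean of 100 TPM. The lists differed by class. CpG-rich windows were found for 2 of 27 hepatocyte plasma proteins and 1 of 15 gut markers with a window, but for 10 of 16 liver transcription factors, for 15 of 15 replication and mitosis genes and for 15 of 18 genes among the 20 most abundant. Both CpG-rich plasma protein genes were expressed, as were 12 of the 25 CpG-poor ones. These shares describe where the expressed genes lie and were not tested.

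The 3 shcontrol libraries were close to each other but differed by more than counting noise. The scaling factors of the trimmed mean of M values (TMM), which correct for composition, ran from 0.985 to 1.02, and the common biological coefficient of variation of edgeR was 5.65%. A chi-square test per gene of the 3 counts against equal scaled levels, adjusted by Benjamini-Hochberg, gave an adjusted p under 0.05 in 2789 of 15908 genes with a mean count of at least 20 (17.5%). The number was 1266 without replicate 1, 2520 without replicate 2 and 1153 without replicate 3. Over nuclear genes, the mean chi-square per gene was 3.38 between replicates 1 and 2, 3.73 between 2 and 3 and 6.31 between 1 and 3, where counting noise alone gives 1. Replicates 1 and 3 were thus the most different pair. The differences were small. Among 11910 genes with a mean count of at least 100, the median coefficient of variation in excess of counting noise (excess CV) was 3.25%, and 110 genes exceeded 20%.

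**Figure D4:**
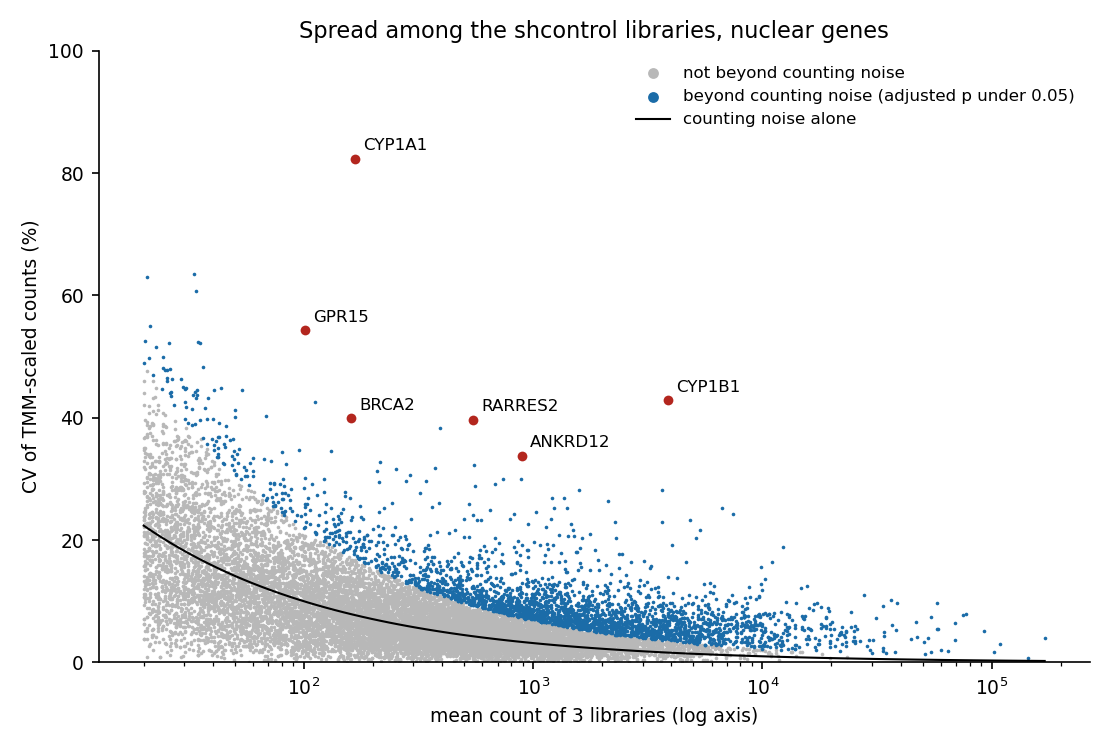
Coefficient of variation (%) of TMM-scaled counts over the 3 shcontrol libraries against the mean count (log axis) of nuclear genes, with genes beyond counting noise in blue, the others in grey, counting noise alone as a line and 6 of the 15 most variable genes in red. CYP1A1 lies highest and CYP1B1 is the most variable gene with a mean count above 1000.

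CYP1A1, the drug-oxidising cytochrome P450 induced through the aryl hydrocarbon receptor, was the most variable of these genes. It gave 132, 47 and 320 counts in replicates 1, 2 and 3, or 5.78, 2.13 and 13.8 CPM (TMM-scaled), an excess CV of 82.0% (chi-square adjusted p = 3.55e-46). CYP1B1, a second enzyme induced by the same receptor, gave 3885, 2119 and 5605 counts (excess CV 42.8%, and 24.4% without replicate 2), part of which may belong to RMDN2-AS1 on the same strand. TIPARP, a feedback repressor of the receptor, gave 644, 511 and 759 counts (excess CV 16.4%). All 3 were lowest in replicate 2 and highest in replicate 3. The receptor itself had an excess CV of 5.15%, with 15.7, 16.4 and 18.5 TPM for AHR and 16.4, 17.4 and 19 TPM for its partner ARNT. Of its other targets, ALDH3A1 had an excess CV of 3.45% and NQO1, which NRF2 also induces, of 2.59%. The feedback repressor AHRR did not pass the test. Of the 8 measured genes of this list 7 passed, beside 17.5% of all genes tested and 23.8% of those with a mean count of at least 100. The test calls smaller differences in more abundant genes.

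The same order of libraries, replicate 2 lowest and replicate 3 highest, was found in 9 of the 15 most variable genes. Besides CYP1A1 and CYP1B1 these were GPR15, RARRES2, CYP1B1-AS1, VIPR1, MEGF6, ADGRF1 and SLC6A12. GPR15, a homing receptor, had 4.38, 2.04 and 6.84 CPM, and RARRES2, the secreted chemoattractant chemerin, 23.6, 14.6 and 33.6 CPM. CYP1B1-AS1 spans part of CYP1B1 on the other strand. Over all 2755 nuclear genes that passed, 223 (8.09%) had this order, beside 13.6% of all genes tested. Its 21 genes with an excess CV over 20% had a median exonic length of 3663 bases.

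The other 6 of the 15 were CCDC144CP, BRCA2, ANKRD12, ANKRD36, DNAH1 and ANKRD36B. All were lowest in replicate 1 and highest in replicate 3, and all were long. BRCA2, a DNA repair gene with 12273 exonic bases, gave 90, 171 and 219 counts, and ANKRD12, with 12252, gave 554, 979 and 1148. Without replicate 1 neither passed (chi-square adjusted p = 0.278 for BRCA2 and 0.118 for ANKRD12). ANKRD36 and ANKRD36B are near copies, so their counts are uncertain. Of the 110 genes with an excess CV over 20%, 62 had replicate 1 lowest, replicate 2 between and replicate 3 highest, an order found in 26.3% of the genes that passed and 19.4% of all tested. Their median exonic length was 11314 bases beside 4253 for all genes tested. The opposite order, with replicate 3 lowest and replicate 1 highest, was the most frequent among genes that passed (890 genes, 32.3%, beside 22.3% of all tested). Those 890 genes had a median exonic length of 3410.5 bases, and 8 of them had an excess CV over 20%.

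Exonic length moved with the difference between libraries in genes over 1000 bases. The median log2 ratio of CPM between replicates 3 and 1 was -0.12 in genes between 1000 and 2000 exonic bases and 0.13 in genes over 16000 bases. Between replicates 2 and 1 the medians of the same 2 classes were -0.04 and 0.11. In genes of up to 500 bases the median between replicates 3 and 1 was -0.10. GC content moved with it as well. Between replicates 3 and 1 the median was 0.06 in transcripts of up to 40% GC and -0.08 in those over 60%. Among genes of 45% to 55% GC, it still went from -0.12 at up to 2000 bases to 0.04 above 8000 bases. Endoplasmic reticulum chaperones, of which 10 of 15 passed the test, and elongation factors, of which 11 of 12 passed, had their lowest summed CPM in replicate 3. The background is 17.5% of all genes tested and 23.8% at a mean count of at least 100, and both lists hold very abundant genes, in which the test calls small differences. The part of length and GC content in the differences of single genes was not tested.

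**Figure D5:**
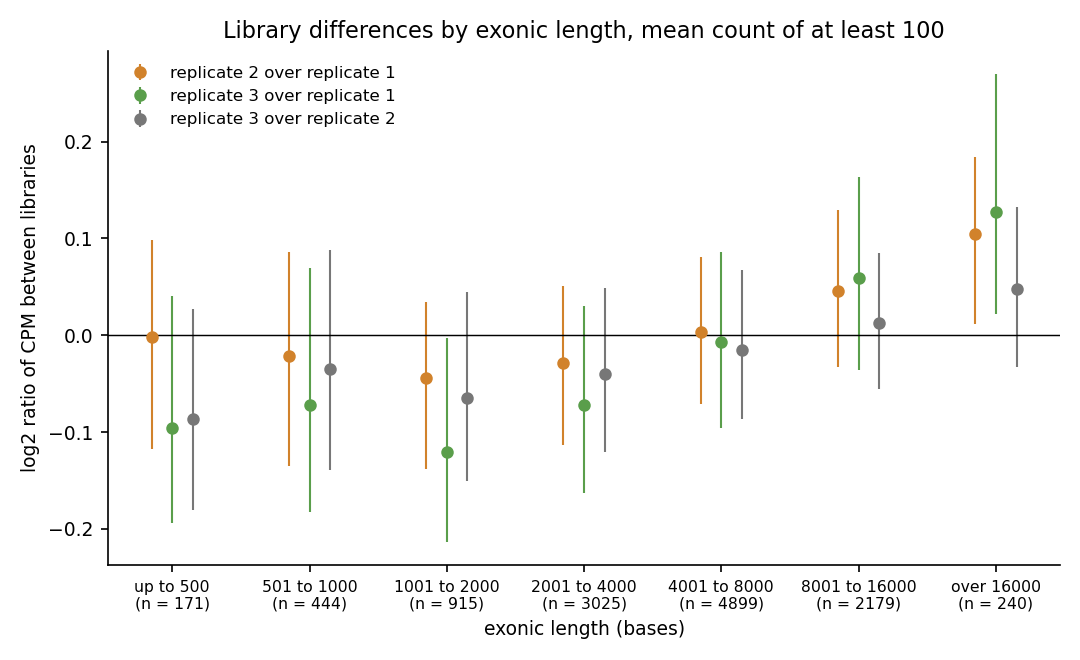
Median log2 ratio of CPM between pairs of shcontrol libraries (points, with bars for the middle 50% of genes) by exonic length class, for nuclear genes with a mean count of at least 100. The ratio of replicate 3 over replicate 1 lies at -0.12 for genes between 1000 and 2000 bases and at 0.13 above 16000 bases.

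Identity markers were tested in the same way. ALB did not pass the test (1423, 1438 and 1505 counts, chi-square adjusted p = 0.646), nor did CDH1 (520, 519 and 506 counts, chi-square adjusted p = 0.668) or HNF4A (1005, 888 and 1025 counts, chi-square adjusted p = 0.250). Of the tested plasma protein genes 7 of 20 passed, of the gut markers 8 of 17 and of the liver transcription factors 7 of 22. Each list has few members, and its share is set beside the 17.5% of all genes tested and the 23.8% of those with a mean count of at least 100. Many of these markers are abundant, and in such genes the test calls small differences. Whether the lists vary more than other genes of equal abundance was not tested. Among those that passed, AGR2, a disulfide isomerase of mucus-secreting cells, varied most of the gut markers, with 56.3, 52.3 and 44.6 TPM (excess CV 14.2%). MUC1, a membrane mucin counted among the biliary markers, varied most there, with 3.66, 2.82 and 5.42 TPM (excess CV 29.1%). AGR2 was lowest in replicate 3 and MUC1 in replicate 2.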

How the data were processed

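Poly-A-selected RNA of shcontrol HCCLM3 cells was sequenced in 3 libraries, grouped by the treatment label. The authors deposited raw counts per gene with an exonic length for each. The submitters' processing notes name the build GRCh38 and the tools edgeR 3.12.1, Subread 1.5.1 with its program featureCounts, STAR 2.5.3a and Trimmomatic 0.36. Neither a strand setting, nor a rule for multiply mapped reads, nor an annotation release is given in the sources used here. Totals were 22376867 to 23033763 counts, and 1 count at 1 kilobase was worth 0.0660 to 0.0679 TPM.

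TPM was computed from these counts and lengths over all genes, and CPM with TMM factors (edgeR 4.0.16). Protein-coding status came from GENCODE 29 by symbol, or else from RefSeq by symbol or unique synonym, for 24036 genes. For 10198 genes no type was found, and 12.1% of genes overlapped another on the same strand. The spread was tested by a Pearson chi-square per gene (scipy 1.17.1, 2 degrees of freedom, mean count of at least 20, Benjamini-Hochberg), checked on simulated data. Excess CV is the coefficient of variation left after the counting variance. Its p-values speak of these libraries alone. Floors of 3 counts cover counting error only. Named genes were the 20 most abundant, the 5 highest expressed members of each list, members of the hepatocyte, biliary and gut lists and of the liver transcription factor list, the 15 with the largest excess CV and the largest of each list, members at 0, 5 noncoding genes and ATXN7L3, with exceptions stated. The libraries, lists and tests were chosen with earlier results of these data known. The NRF2, chaperone and MET neighbour lists, the length and GC classes and the split by library order were chosen after values were seen. The ATXN7L3 knockdown libraries were not used. Alternatives were other TPM thresholds, CPM, a nuclear total, overlapping genes left out, other scalings, other count filters, another CpG threshold and each replicate left out. Some list members are counted in their lists but not reported singly here.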

Additional observations from a re-analysis of the deposited data

How the results depend on the processing

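Of 83 recomputed summary values (78 planned, 5 added after seeing the data), 72 stayed within the limit set for them and 11 moved. The limit for counts of genes was wide, a change of up to 1.5-fold. Shares of the libraries were held to the SD over libraries, and promoter shares to their confidence interval. With the nuclear total, expressed genes went from 14670 to 17966 and hepatocyte enzymes and transporters from 11 to 15, and both were held to have stayed. Leaving out genes that overlap another on either strand gave 6675 expressed genes (31.3% of 21309) and 5455 expressed protein-coding genes (58.6% of 9316). It also gave 13 of 16 liver transcription factors and 5 of 7 biliary and progenitor markers. The counts fell by construction, because fewer genes remained, but the shares changed as well. They went from 42.9% to 31.3% for all genes and from 65.2% to 58.6% for protein-coding genes. For the liver transcription factors they went from 83.3% to 81.25%, and for the biliary and progenitor markers from 60% to 71.4%. As a share of TPM in place of counts, mitochondrially encoded genes took 67.4% and ribosomal protein genes 0.790%. The 10 genes with the highest TPM took 48.6%, but all of them are mitochondrially encoded, so this is part of the 67.4%. The 10 most abundant nuclear genes of any type took 5.52% of the nuclear counts. A CpG threshold of 0.75 gave 80.5% expressed genes in CpG-rich and 48.4% in CpG-poor windows. Genes beyond counting noise numbered 1153 to 2520 when 1 library was left out, with 1266 without replicate 1 and 1153 without replicate 3 (the pair of replicates 1 and 3 remains in the 2520). They numbered 2809 by library size, 2753 with DESeq2 size factors and 2744 with upper-quartile scaling. No paired analysis was possible because only 1 group was described. Of 76 single-gene values, 61 stayed, 13 were TPM levels that scale with the nuclear total, and 2 were the calls of BRCA2 and ANKRD12 lost without replicate 1. At these depths genes under about 3 counts cannot be ordered.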
